A study of Homo sapiens with 20 samples.

Results

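The human UBE2 genes encode ubiquitin-conjugating (E2) enzymes, and their transcripts were measured here in HCT-116, a line of human colon cancer cells. The members were the protein-coding rows, by GENCODE release 29, whose symbol starts with UBE2. There were 37 of them among 39918 rows with Ensembl identifiers, of which 17975 were protein-coding in that release. A further 29 rows with UBE2-derived names, pseudogenes and antisense transcripts among them, were left out and held 0.409% of all UBE2 counts. UBE2NL, annotated as a pseudogene there, was not a member.

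The study sequenced total RNA, depleted of ribosomal RNA, from HCT-116 cells in 20 libraries, 5 groups of 4. Asynchronous cells received no agent. The other 4 groups shared a synchronisation with 2 mM thymidine for 16 h, followed by 7 h in fresh medium. One of them, called G2 here after its label, was collected then, and the other groups were kept for 3 h more in 20 µM MG132, in 100 nM bortezomib, or in 20 µM MG132 with 50 µg/ml α-amanitin. MG132 is a peptide aldehyde and bortezomib a peptide boronate, and both inhibit the proteasome. α-Amanitin, a mushroom toxin, inhibits RNA polymerase II. The drug groups are matched in time with each other but not with G2: a comparison with G2 holds the drug and 3 h of culture together, since a synchronised group kept that long without drug was not analysed here. Whether replicates came from separate cultures is not stated in the labels, so p-values rest on the variation among these libraries, some of which may be technical.

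Ubiquitin is activated by an E1 enzyme, passed to the active-site cysteine of an E2 and attached to a substrate with the help of an E3 ligase. The E2 commonly sets which lysine of ubiquitin the next ubiquitin is joined to, and chains of different linkage have different fates, among them degradation by the proteasome. A few E2s carry relatives of ubiquitin such as SUMO, NEDD8 and ISG15, and a few proteins of the same fold lack the active-site cysteine.

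Library totals ranged from 26797395 to 39710457 counts. Levels are given as CPM, the count of a gene per 1000000 counts of its library, as mean ± SD over 4 libraries. Library sizes were adjusted by edgeR's TMM method. CPM values and fold changes are thus relative: a change shared by most transcripts would not show in them. Several libraries stood apart. The share of counts on protein-coding genes was lowest in the first asynchronous library (replicate 1, 67.6%) and the first G2 library (replicate 1, 68.3%), and 75.5% to 82.2% elsewhere. For each library, the departure of each tested gene from its mean over all 20 libraries was taken. It was fitted on transcript GC content and log2 exon length together, for the 98.6% of tested genes with both values. The resulting slopes on GC content can hold differences between groups as well as between replicates. A slope steeper than 0.3 in either direction, in log2 units for every 10 points of GC, was found in 4 libraries. These were asynchronous replicate 3 with a slope of 0.5, G2 replicate 2 with 0.36, MG132 replicate 2 with -0.41 and MG132 replicate 4 with 0.74, and the others lay between -0.27 and 0.2. As checks of the labelled treatments, HSPA6, a heat shock gene, rose from 0.125 ± 0.0637 CPM in G2 to 75.6 ± 20.2 in MG132 (edgeR adjusted p = 6.93e-10) and 7.2 ± 3.53 in bortezomib (adjusted p = 3.95e-07), and KIF20A, a mitotic kinesin, rose from 139 ± 26.3 CPM in asynchronous cells to 276 ± 25 in G2 (adjusted p = 0.00726). The cyclin CCNB1 was 391 ± 74.5 and 598 ± 126 CPM in the same groups (adjusted p = 0.213) and did not pass the test. The 10 epithelial markers summed to between 3226 and 5985 CPM in every library, with VIL1, CEACAM5 and GPX2 at or near 0, and 7 of the 10 passed the filter on low counts.

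UBE2S and UBE2T, both cell cycle regulated in many cell types, are shown with the 250 bases upstream of their RefSeq start (GRCh38.p14, minus strand), because promoters of such genes are known for CCAAT boxes and for the cell cycle homology region. Capitals mark CCAAT on either strand (ATTGG where it lies on the other strand), the cell cycle homology region TTTGAA and the cAMP response element TGACGTCA. The UBE2S window is chr19:55407789-55408038 and the UBE2T window chr1:202341937-202342186.
UBE2S: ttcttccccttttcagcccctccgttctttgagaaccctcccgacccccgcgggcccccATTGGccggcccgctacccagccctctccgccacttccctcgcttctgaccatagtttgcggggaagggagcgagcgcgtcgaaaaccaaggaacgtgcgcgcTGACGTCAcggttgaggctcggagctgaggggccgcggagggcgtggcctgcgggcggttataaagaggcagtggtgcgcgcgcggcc
UBE2T: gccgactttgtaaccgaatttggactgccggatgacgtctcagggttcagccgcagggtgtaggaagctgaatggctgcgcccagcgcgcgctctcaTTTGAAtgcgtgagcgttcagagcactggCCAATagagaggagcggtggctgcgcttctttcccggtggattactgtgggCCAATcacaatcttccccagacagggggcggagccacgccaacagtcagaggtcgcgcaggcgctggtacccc
UBE2S held a CCAAT box on the other strand, from base -191 to -187 before the start, and a cAMP response element from -88 to -81. UBE2T held CCAAT boxes at -124 to -120 and at -73 to -69 and a TTTGAA at -153 to -148. None of these matches overlapped another.

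Promoter sequences matched 28 of the 37 members. Those of UBE2B, UBE2C, UBE2H, UBE2L5, UBE2Q1, UBE2Q2L, UBE2V2 and UBE2W, among others, were not used here. With both strands searched, CCAAT was found in 9 of the 28 windows and in 33% of 27305 RefSeq promoters of the same length. Unlike the members, those 27305 were not limited to protein-coding genes, which holds for every share of all promoters given here. TTTGAA was in 4 windows, those of UBE2F, UBE2F-SCLY, UBE2T and UBE2U, against 13.6% of all promoters. The windows of UBE2F and UBE2F-SCLY overlap and share their matches. The antioxidant response core TGACNNNGC was in 4, those of UBE2D2, UBE2J1, UBE2K and UBE2Q2, against 11%, and TGACGTCA was in UBE2S only, against 1.77%. No window held the heat shock pair GAANNTTC, the C/EBP-ATF element TGATGNAA or the E-box CACGTG, found in 5.85%, 3.19% and 6.49% of all promoters, which says only that these letters are not in these windows. The median GC content was 72.0% in the members' windows and 58.0% in all.

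Together the 37 genes held a steady share of the counts in each library: 0.246% to 0.266% in asynchronous cells, 0.253% to 0.284% in G2, 0.241% to 0.258% in MG132, 0.249% to 0.277% in bortezomib and 0.249% to 0.282% in MG132 with α-amanitin. Of the 37, 35 passed the filter on low counts. UBE2QL1, with 1 count in all 20 libraries, and UBE2U, with 12, did not, and UBE2L5 (196 counts) and UBE2Q2L (218 counts) passed at very low levels. UBE2F and the readthrough UBE2F-SCLY overlap, as does UBE2V1 with a readthrough gene, so the division of reads between them is uncertain.

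Levels of different genes were compared as CPM per kilobase of exon, with all annotated exons of a gene merged, so the order depends on that length. In G2 the order was led by UBE2C at 165 ± 33.6 and UBE2S at 118 ± 38.5, which overlapped each other, and every UBE2S library lay above every library of the next gene, UBE2M, at 45.1 ± 7.74. UBE2C and UBE2S work with the anaphase-promoting complex (APC/C), the ligase that drives mitotic exit: UBE2C starts ubiquitin chains on its substrates and UBE2S lengthens them. UBE2T followed at 40 ± 9.89 and UBE2L3 at 31.8 ± 4.33 CPM per kilobase. From there down to UBE2F at 4.47 ± 0.953, no gene was separated from its neighbour in the order. UBE2E2 at 2.22 ± 0.24 and UBE2D4 at 1.94 ± 0.344 formed a lower pair that did not separate. UBE2Q2L at 0.363 ± 0.132 and UBE2L5 at 0.095 ± 0.0649 came last. By CPM without division by length, UBE2S (329 ± 107) and UBE2D3 (244 ± 29.1) stood above UBE2C (212 ± 43.2) in G2.

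**Figure D1:**
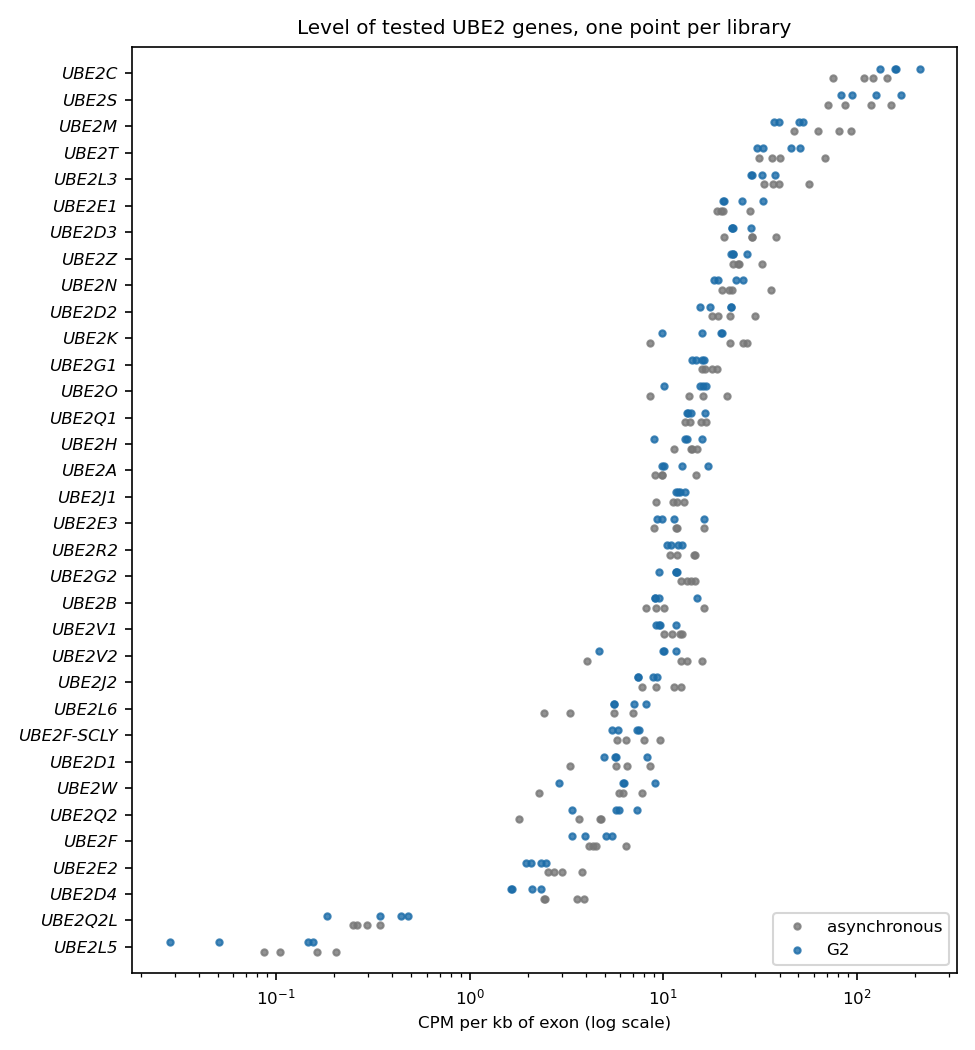
Level of the tested UBE2 genes reported here in CPM per kilobase of exon (log scale), 1 point per library, for asynchronous (grey) and G2 (blue) cells, ordered by the G2 mean. In G2, UBE2C and UBE2S stand above the other genes, and UBE2L5 and UBE2Q2L stand lowest.

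Across the 5 groups the members' levels moved little. Among the 33 with a mean of at least 5 CPM, the ratio of the highest to the lowest group mean had a median of 1.27, from 1.05 for UBE2O to 2.03 for UBE2C. It reached 1.5 in 6 of them (18.2%), namely UBE2C, UBE2D4, UBE2M, UBE2Q2, UBE2T and UBE2K, while 40.8% of the 11314 genes at that level reached it, with a median of 1.43. No test was made of that difference, and beyond that cut the sets were not matched for expression level. The highest mean lay in asynchronous cells for 18 of 33 members, and the lowest in MG132 with α-amanitin for 12. The matching shares over all genes are not given, and such counts depend on scaling and on single libraries. The members' median log2 difference of G2 from asynchronous cells was -0.13. It was -0.04 without asynchronous replicate 1 and 0.03 with library totals in place of TMM.

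Differences were tested for all genes with edgeR's quasi-likelihood test in 1 model of 20 libraries, and a gene was called at a Benjamini-Hochberg adjusted p under 0.05 over 18959 genes. In G2 against asynchronous cells 0 of 35 members were called, where 2.09% of all genes were (1.95% higher and 0.148% lower). An unadjusted p under 0.05 was found for 4 members (13.1% of all genes). The counts called by DESeq2 and limma-voom were 1 and 0, where they called 3.77% and 1.95% of all genes. The members' log2 fold changes ran from -0.68 to 0.58, with a median of -0.13 against -0.04 over all genes, and 25 were negative. With library totals in place of TMM the median over all genes shifted by 0.16, and the members' median became 0.03, while a correction for GC content and transcript length moved it to -0.35. For 25 members the 95% interval lay within a 2-fold change in either direction.

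The 2 proteasome inhibitors and the combination share the G2 controls. MG132 against G2 gave 0 calls of 35, against 2.08% of all genes (1.01% higher and 1.08% lower), and no member had an unadjusted p under 0.05 (11.8% of all genes). The median change was 0.02, against -0.03 over all genes, and 31 of 35 intervals lay within 2-fold. The MG132 libraries of 0 members lay wholly above or wholly below those of G2, where 2.07% and 4.45% of all genes did. With library totals the median over all genes moved by -0.12. Bortezomib against G2 also gave 0 calls, against 1.15% of all genes (0.491% higher and 0.659% lower), with an unadjusted p under 0.05 for 1 member (14.5% of all genes), a median of -0.06 against -0.01, and 30 intervals within 2-fold. MG132 against bortezomib, compounds given at different doses, gave 0 calls where 0.0369% of all genes were called. No member had an unadjusted p under 0.05 (4.05% of all genes). Changes ran from -0.52 to 0.84, with 28 intervals within 2-fold. The 0.84 was UBE2L5, at 0.334 ± 0.192 against 0.191 ± 0.177 CPM, and the next highest was 0.38 for UBE2L6. In each of these 3 comparisons DESeq2 and limma-voom called 0 members as well. In the same order DESeq2 called 3.41%, 3.28% and 0.1% of all genes, and limma-voom 2.1%, 1.13% and 0.0369%.

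Adding α-amanitin to MG132 gave 0 calls against MG132 alone, where 2.19% of all genes were called (0.68% higher and 1.51% lower). As levels are relative, a fall common to most transcripts under α-amanitin would not show in these counts. An unadjusted p under 0.05 was found for 2 members (12.5% of all genes), and 29 intervals lay within 2-fold. DESeq2 and limma-voom called 0 members, where they called 3.79% and 2.26% of all genes. The median was -0.07 against 0.02 over all genes. Library totals moved the latter by 0.17 and the members' median to 0.11, and the GC and length correction moved the members' median to -0.31. In MG132 with α-amanitin against G2, 1 member of 35 was called, UBE2C, which was lower, where 3.35% of all genes were called, 1.04% higher and 2.32% lower. An unadjusted p under 0.05 was found for 3 members (14.4% of all genes). The median there was -0.06 against 0.0, and 28 intervals lay within 2-fold.

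**Figure D2:**
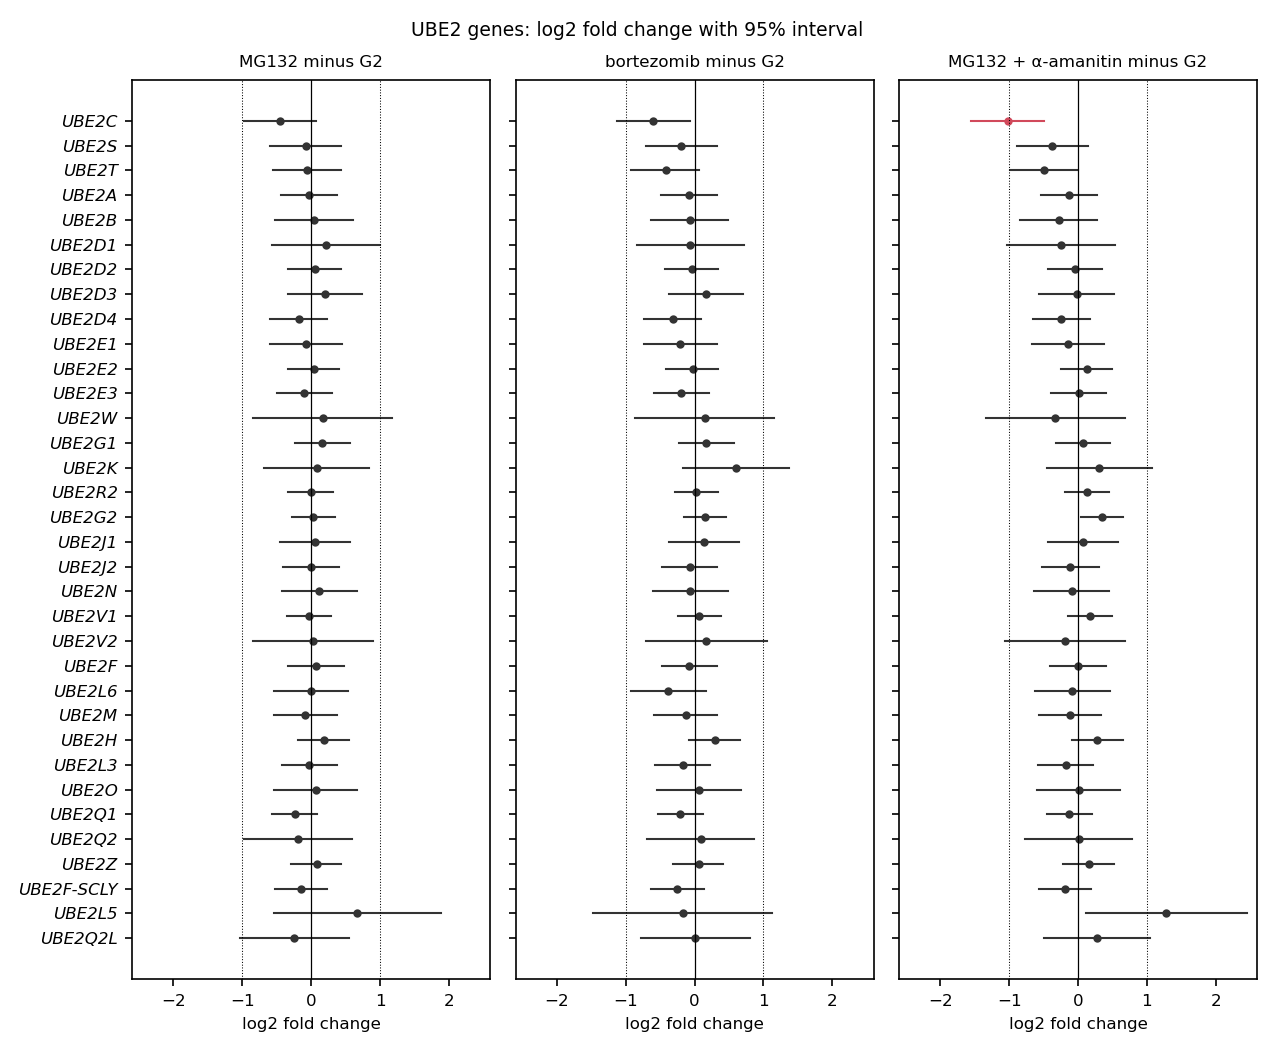
Log2 fold change (points) with its 95% interval (bars) for the tested UBE2 genes reported here in 3 comparisons that share the G2 libraries, with dotted lines at a 2-fold change. The only called difference, UBE2C in MG132 with α-amanitin, is drawn in red at -1.02.

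UBE2C (ENSG00000175063.17; hg38, chromosome 20, 45812576 to 45816957) stood highest in G2. Its libraries 1 to 4 held 272, 205, 169 and 204 CPM in G2, and 185, 96.6, 141 and 157 in asynchronous cells. MG132 libraries held 99.5, 206, 135 and 180 CPM, bortezomib libraries 143, 146, 166 and 107, and those with MG132 and α-amanitin 82.4, 93.9, 103 and 139. All 4 G2 libraries thus lay above all 4 of bortezomib and all 4 of the combination, while those of asynchronous cells and of MG132 overlapped G2. Libraries free of overlap in that direction were found for 7.55% of all genes with bortezomib and for 7.24% with the combination.

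UBE2C fell in MG132 with α-amanitin from 212 ± 43.2 to 105 ± 24.6 CPM, a log2 fold change of -1.02 (SE 0.253, 95% interval -1.55 to -0.49, adjusted p = 0.0271). In bortezomib it was 140 ± 24.6 CPM, a log2 difference of -0.6 (SE 0.251, adjusted p = 0.276), and in MG132 155 ± 47.2 CPM, -0.45 (SE 0.251, adjusted p = 0.546). Against MG132 alone the combination differed by -0.57 (adjusted p = 0.345), and G2 against asynchronous cells by 0.55 (adjusted p = 0.344). None of those 4 passed the test. In bulk RNA, fewer cells in the phase that makes a transcript and less of it per cell cannot be told apart.

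The call on UBE2C depended on which libraries were fitted. Without the 4 libraries that sloped with GC content it was kept, at -1.06 (adjusted p = 0.0206). It was lost without G2 replicate 1 (-0.88, adjusted p = 0.109), G2 replicate 2 (-1.04, 0.0604), and replicates 1 (-0.92, 0.123), 2 (-0.97, 0.101) or 3 (-1.01, 0.0757) of the combination. The labels give each sample a code letter of unstated meaning. With that letter in the model the difference was -0.76 (adjusted p = 0.188).

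**Figure D3:**
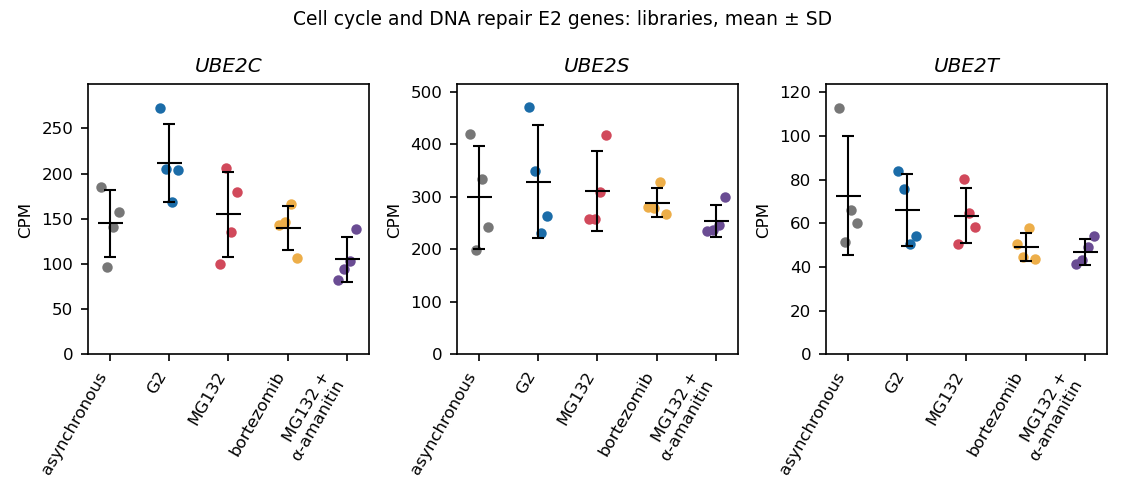
CPM of UBE2C, UBE2S and UBE2T in each library (points) of the 5 groups, with mean ± SD (bars). The UBE2C points of MG132 with α-amanitin, 82.4 to 139 CPM, all lie below those of G2, 169 to 272 CPM.

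The other 2 genes of the mitotic and DNA repair group did not pass the test in any comparison. UBE2S had 471, 350, 232 and 263 CPM in G2 and 420, 199, 333 and 243 in asynchronous cells, overlapping widely. With MG132 and α-amanitin its libraries held 234, 236, 247 and 300 CPM, a log2 difference from G2 of -0.37 (SE 0.249, adjusted p = 0.567). UBE2T, the E2 of the Fanconi anaemia pathway of DNA crosslink repair, had 84, 75.8, 50.4 and 54.2 CPM in G2, and 41.4, 43.4, 49 and 54.4 in the combination. Only the highest of the latter reached into the G2 range, and the log2 difference was -0.49 (SE 0.236, adjusted p = 0.35). In bortezomib UBE2T was 49.2 ± 6.57 CPM, -0.42 from G2 (adjusted p = 0.422). UBE2C, UBE2S and UBE2T had negative differences in all 3 drug groups against G2, from -0.06 for UBE2T in MG132 to the -1.02 of UBE2C, but these share their controls. With the GC and length correction UBE2S and UBE2T turned to 0.11 and 0.14 in MG132 and UBE2S to 0.01 in bortezomib.

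The RAD6 pair, UBE2A and UBE2B, mark histone H2B and the replication clamp PCNA. UBE2A was 57.5 ± 13.6 CPM in asynchronous cells, 65.4 ± 17.7 in G2, 63.9 ± 8.44 in MG132, 61.9 ± 5.02 in bortezomib and 59.8 ± 4.97 in the combination. UBE2B ranged from 28.9 ± 3.14 CPM in the combination to 36 ± 14.7 in MG132. Neither passed the test in any comparison, and their differences lay between -0.32 and 0.19.

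UBE2D1 to UBE2D4 serve a broad range of ligases. UBE2D3 was the most abundant by CPM, at 294 ± 73.1 in asynchronous cells and 244 ± 29.1 in G2, and UBE2D4 the least. UBE2D2 went from 79.2 ± 18.8 to 69.2 ± 12.4 CPM between these groups and lay between 67.2 ± 5.46 and 71.8 ± 10.7 after drug, and UBE2D1 held 21 ± 7.66 and 21.4 ± 5.05 CPM. None of these 3 was called. UBE2D4 had the smallest p of any member between G2 and asynchronous cells. Its libraries held 18.5, 11.6, 16.9 and 11.4 CPM in asynchronous cells and 9.88, 11, 7.73 and 7.83 in G2, so that all 4 G2 values were below all 4 asynchronous ones. The means were 14.6 ± 3.61 and 9.12 ± 1.62 CPM, a log2 difference of -0.68 (SE 0.199) with an adjusted p of 0.087 from edgeR. Other treatments of the counts put it past the threshold: DESeq2 gave -0.7 (adjusted p = 0.0315), and the GC and length correction gave -0.91 (adjusted p = 0.0336), at settings that called 3.77% and 6.54% of all genes. Over all alternatives its adjusted p ran from 0.0315 to 0.307, and without asynchronous replicate 1 the difference was -0.54 (adjusted p = 0.22). In the drug groups UBE2D4 stayed between 7.31 ± 1.76 CPM in bortezomib and 8.04 ± 0.154 in MG132.

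The libraries of 3 members, UBE2D4, UBE2E2 and UBE2G2, were all lower in G2 than in asynchronous cells, and those of 0 members were all higher, where 1.89% and 5.75% of all genes were so. UBE2E2, of the family UBE2E1 to UBE2E3, had 12.5, 8.94, 9.79 and 8.36 CPM in asynchronous cells and 7.68, 8.13, 6.84 and 6.4 in G2, a log2 difference of -0.44 (SE 0.179, adjusted p = 0.258). UBE2E1 was 67.4 ± 12.9 and 76.5 ± 17.9 CPM in the same groups, and UBE2E3 36.3 ± 9.1 and 34.8 ± 9.33. After drug UBE2E1 lay between 66.2 ± 11.5 and 72.7 ± 28.8 CPM and UBE2E3 between 30.5 ± 1.16 and 34.9 ± 3.19. Markers of other cell types were low in both groups, and the fibroblast sum was higher in every G2 library. The 10 fibroblast markers, 2 of them past the filter, summed to 3.75 to 4.66 CPM in asynchronous libraries and 6.65 to 10.8 in G2, and the 9 leukocyte markers in the table, 2 past the filter, to 3.07 to 6.69 and 5.89 to 8.01. COL1A1 made up most of the first sum, and DCN and LUM reached at most 0.0784 and 0.0676 CPM in any library. Of the leukocyte markers CD68, CORO1A and CD79A reached 5.78, 4.7 and 1.4 CPM, and PTPRC and CD3E at most 0.148 and 0.0626. Their part in the differences between G2 and asynchronous cells was not tested.

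UBE2M and UBE2F carry NEDD8, the modifier that activates cullin-RING ligases, and UBE2L6 carries ISG15. UBE2M held 172, 87.4, 148 and 116 CPM in asynchronous cells and 96.9, 92.3, 72.6 and 68.3 in G2. One asynchronous library, replicate 2, lay among the G2 values and the other 3 above them. The log2 difference was -0.66 (SE 0.22, adjusted p = 0.144), and it passed the threshold only with the correction for GC content and length, at -0.96 (adjusted p = 0.00527). Without asynchronous replicate 1 it was -0.5 (adjusted p = 0.318). UBE2M has the highest GC content of the members, 65.6%. After drug it remained between 75.5 ± 9.65 CPM in bortezomib and 77.8 ± 20 in MG132.

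UBE2F varied from 17.9 ± 2.04 CPM in bortezomib to 20.6 ± 4.55 in asynchronous cells. UBE2L6 had 15.3, 7.25, 12.2 and 5.35 CPM in asynchronous cells and 18, 15.5, 12.3 and 12.3 in G2, a difference of 0.54 (SE 0.26, adjusted p = 0.392) between groups that overlapped. Its level was 14.5 ± 3.47 CPM in MG132 and 11.2 ± 1.33 in bortezomib (0.38, adjusted p = 0.983).

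UBE2G2, UBE2J1 and UBE2J2 act in the degradation of proteins withdrawn from the endoplasmic reticulum (ERAD), a route that ends at the proteasome. UBE2G2 held 91.2, 98.8, 103 and 108 CPM in asynchronous cells and 70.5, 85.9, 86.6 and 87.4 in G2. In MG132 it held 96.9, 69.5, 83 and 87.9 CPM, and with α-amanitin added 108, 111, 103 and 98.5. The libraries of the combination were all above those of G2 and of MG132, which was so for 7.76% and 4.82% of all genes. No member's libraries in the combination lay wholly below those of MG132 (4.01% of all genes). None of the differences was called: -0.28 for G2 against asynchronous cells (SE 0.148, adjusted p = 0.454), 0.35 for the combination against G2 (SE 0.148, adjusted p = 0.266) and 0.32 against MG132 (SE 0.148, adjusted p = 0.379). With the correction for GC content and length the last of these turned to -0.05. UBE2J1 was 52.4 ± 2.58 CPM in G2, 54.4 ± 22.7 in MG132, 57.4 ± 4.48 in bortezomib and 55.1 ± 3.16 in the combination. For UBE2J2 the same groups held 39 ± 4.73, 38.8 ± 10.8, 37 ± 3.57 and 36.2 ± 4.16 CPM, and its only call was in G2 against asynchronous cells with the GC and length correction, at -0.63 (adjusted p = 0.047).

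UBE2K, UBE2G1 and UBE2R2 build chains through lysine 48 of ubiquitin, the classic signal for the proteasome. UBE2K held 83.5, 51.8, 105 and 106 CPM in G2 and 136, 127, 129 and 133 in bortezomib, the latter close together and all above G2. The log2 difference was 0.6 (SE 0.367, adjusted p = 0.466), with groups free of overlap in that direction for 7.66% of all genes. In MG132 the values were 122, 108, 108 and 28.6 CPM, all below bortezomib (-0.52, SE 0.367, adjusted p = 0.983), as for 1.42% of all genes, while 0 members lay wholly above it (1.74% of all genes). The low value is replicate 4, and without the 4 libraries that sloped with GC content the differences were 0.39 for bortezomib against G2 (adjusted p = 0.209) and -0.19 for MG132 against bortezomib (adjusted p = 1). UBE2R2, partner of SCF ligases, lay between 46.4 ± 6.24 CPM in MG132 and 52.8 ± 7.69 in asynchronous cells. UBE2G1 lay between 69.3 ± 4.8 in G2 and 78.4 ± 6.47 CPM in asynchronous cells.

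**Figure D4:**
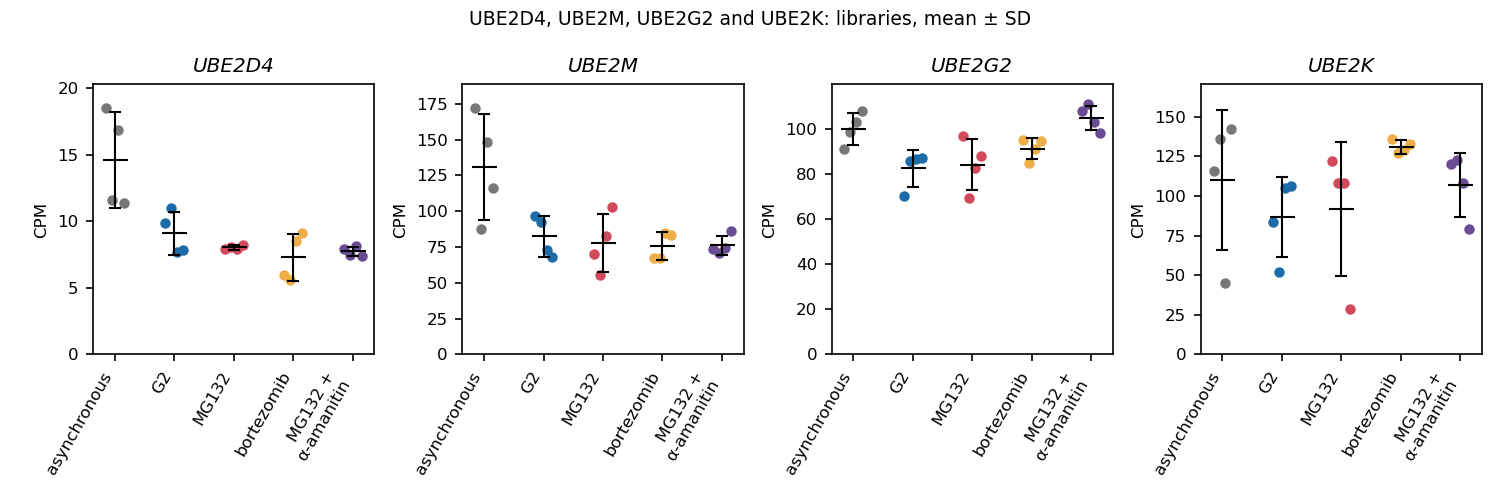
CPM of UBE2D4, UBE2M, UBE2G2 and UBE2K in each library (points) of the 5 groups, with mean ± SD (bars). UBE2D4 and UBE2M stand highest in asynchronous cells, UBE2G2 lies at 98.5 to 111 CPM with MG132 and α-amanitin, and UBE2K spreads widely in every group but bortezomib.

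UBE2N builds chains through lysine 63, which serve signalling and DNA damage tolerance, with UBE2V1 or UBE2V2 as partners that lack the active-site cysteine. UBE2N was 137 ± 22.7 CPM in G2, 148 ± 63 in MG132, 131 ± 20.9 in bortezomib and 128 ± 13.8 in the combination. UBE2V1 in these groups was 48.3 ± 5.36, 47.3 ± 6.89, 50.8 ± 3.88 and 54.6 ± 2.42 CPM. UBE2V2 was 60 ± 20.1, 61 ± 32.8, 67.4 ± 7.14 and 52.7 ± 11 CPM, with an SE of 0.42 on each log2 difference, so that a difference of 2-fold lay inside the 95% interval of MG132 with α-amanitin against G2, -1.06 to 0.69. None of the 3 genes was called in any comparison.

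Of the remaining members, UBE2L3, which serves HECT and RBR ligases such as parkin, was 160 ± 40.1 CPM in asynchronous cells and 122 ± 16.6 in G2 (-0.39, adjusted p = 0.407), and 108 ± 9.9 to 120 ± 22.5 after drug. UBE2H, the E2 of the CTLH ligase, was 83.1 ± 18.5 CPM in G2, 94 ± 5.03 in MG132, 102 ± 11.8 in bortezomib and 101 ± 13.6 in the combination, with differences from G2 of 0.18, 0.29 and 0.28. UBE2Z, which receives ubiquitin or FAT10 from the E1 UBA6, was 137 ± 13 CPM in G2 and 143 ± 4.51 to 154 ± 12.9 after drug. UBE2O, an E2 that also acts as its own ligase, was the least variable by group mean, yet single libraries ran from 44.7 to 141 CPM. UBE2Q1 was 59.7 ± 6.24 CPM in G2 and 50.5 ± 8.9 in MG132 (-0.24, adjusted p = 0.653). UBE2Q2 was lowest in asynchronous cells, at 14.4 ± 5.35 CPM, against 21.5 ± 6.33 in G2 (0.58, SE 0.375, adjusted p = 0.592) and 18.8 ± 10.1 to 22.8 ± 1.25 after drug. UBE2L5 showed the largest log2 value, 1.28 in the combination against G2 (SE 0.563, adjusted p = 0.289), from 0.525 ± 0.183 against 0.207 ± 0.141 CPM, with 196 counts in all 20 libraries together. UBE2Q2L stayed between 0.288 and 0.438 CPM in the group means, and UBE2F-SCLY between 17.6 ± 2.29 in bortezomib and 23.9 ± 5.6 in asynchronous cells, with no call on either.

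The spread between replicates was itself uneven among the members. Among the 33 members with a mean of at least 5 CPM, the 12 with a GC content below 42% had a median SD within groups of 0.38 on the log2 scale, and the 21 others 0.24. UBE2W, which ubiquitinates the amino terminus of proteins and has 34.7% GC, held 56.8, 133, 50.4 and 10.6 CPM in MG132 replicates 1 to 4, UBE2D1 22.5, 48.5, 21.6 and 6.69, and UBE2V2 63.5, 92.1, 73.1 and 15.1. The highest and the lowest MG132 library of each were replicates 2 and 4. MG132 replicate 4 was the lowest of its group for 10 of the 12 members below 42% GC, and for the 21 others it was the highest for 10 and the lowest for 5. Across the 33 genes, which share that library, Pearson's r between GC content and the departure from the group mean was 0.77 in MG132 replicate 4 and 0.74 in asynchronous replicate 3, given as a description. The part of GC content in each difference was not tested beyond the alternatives named.

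**Figure D5:**
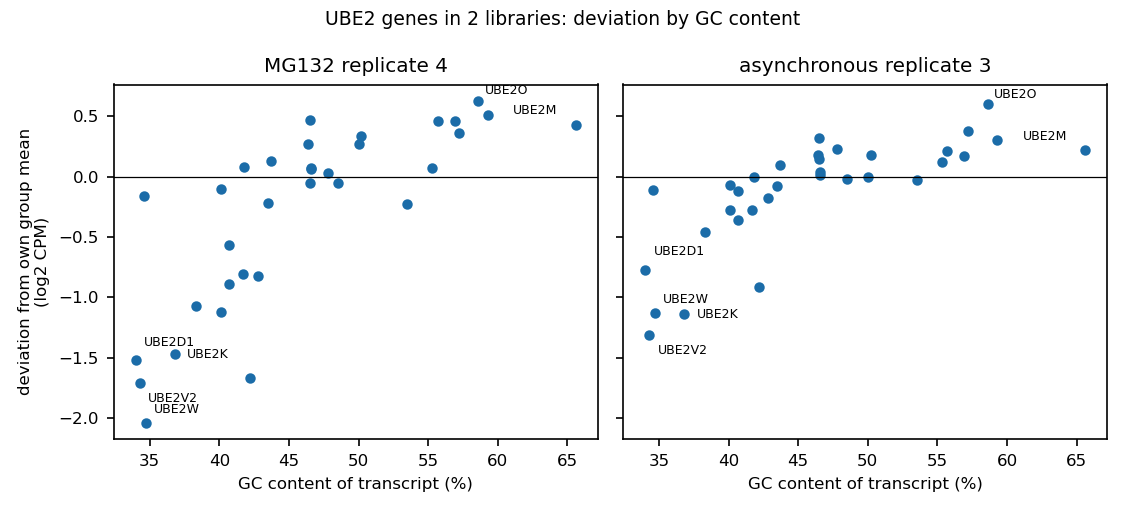
Departure of each UBE2 gene from its own group mean (log2 CPM, vertical) against the GC content of its transcript (percent, horizontal) in MG132 replicate 4 and asynchronous replicate 3. Genes of low GC content such as UBE2W, UBE2V2, UBE2D1 and UBE2K lie below 0 in both libraries, and UBE2O and UBE2M above it.

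Other genes of the pathway were taken from 9 lists. These were E1 enzymes, E2-fold genes with other symbols, ubiquitin and its relatives, APC/C subunits and regulators, and cullin-RING cores. The rest were ERAD machinery, ligases of the RAD6 and lysine 63 routes, quality control ligases, and SUMO ligases and proteases. Of 135 genes, 133 were tested. In G2 against asynchronous cells 0 were called by edgeR, DESeq2 and limma-voom alike. In that order, these methods called 2.09%, 3.77% and 1.95% of all genes. An unadjusted p under 0.05 from edgeR was found for 5 (13.1% of all genes). The median log2 fold change was -0.09 against -0.04 over all genes. In MG132 against G2, 2 of the 133 rose and 0 fell, where 1.01% and 1.08% of all genes did. Among the 2 was HERPUD1, an ERAD component induced by stress of the endoplasmic reticulum, with 171, 193, 163 and 204 CPM in MG132 and 62.6, 47.7, 39.5 and 34.1 in G2 (log2 fold change 1.99, SE 0.25, adjusted p = 8.69e-05). All 4 MG132 libraries lay above all 4 of G2.

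In bortezomib against G2, 1 of the 133 rose and 0 fell, where 0.491% and 0.659% of all genes did. The 1 was HERPUD1, with 157, 124, 128 and 123 CPM (1.53, SE 0.247, adjusted p = 0.0029). Between MG132 and bortezomib 0 were called by edgeR (0.0369% of all genes), DESeq2 (0.1%) or limma-voom (0.0369%). An unadjusted p under 0.05 from edgeR was found for 3 (4.05% of all genes). With α-amanitin added to MG132, 1 of the 133 rose and 2 fell, where 0.68% and 1.51% of all genes did. HERPUD1 fell from 183 ± 19 to 42.6 ± 14.7 CPM (-2.1, adjusted p = 3.84e-05), with no overlap between the groups. UBA7, the E1 that passes ISG15 to UBE2L6, rose from 0.505 ± 0.138 to 2.43 ± 0.444 CPM (2.27, adjusted p = 7.75e-05), while UBE2L6 differed by -0.08 (adjusted p = 0.941). In the combination against G2, 1.04% of all genes were called higher and 2.32% lower. Of the 133, UBA7 was higher (2.14, adjusted p = 0.000173) and 2 genes fell. These were FBXO5, the inhibitor of the APC/C, from 59.5 ± 8.89 to 25.7 ± 7.49 CPM (-1.21, SE 0.262, adjusted p = 0.0113), and RNF139, an ERAD ligase, from 44.4 ± 6.55 to 21.1 ± 4.91 (-1.07, SE 0.232, adjusted p = 0.0113). Both of those calls were lost without replicate 1 of the combination (adjusted p = 0.062 and 0.0593) and without its replicate 2 (adjusted p = 0.0579 and 0.0588), and that on FBXO5 also with the code letter in the model (adjusted p = 0.0543).

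The APC/C list of 17 genes holds subunits, activators and the inhibitor FBXO5. Only FBXO5 was called in any comparison, and none of the subunits or activators was. The E2-fold genes with other symbols, 8 in number and including CDC34, gave 0 calls in every comparison, as did the cullin-RING list with 22 genes. The ligases of the RAD6 and lysine 63 routes had the highest list median in a drug comparison, 0.42 in bortezomib against G2 over 18 genes, against -0.01 over all genes, with 0 called.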

How the data were processed

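RNA was extracted from HCT-116 cells with TRIzol, treated with DNase, and made into stranded libraries of ribosome-depleted total RNA, per the labels' protocols. The authors deposited raw counts, without normalisation, in 1 table of 41092 rows, of which 39918 have Ensembl identifiers and 1174 are repeats, by 20 libraries. Per the submitters' processing notes, FastQC, cutadapt 1.18, STAR and the build hg38 were used. How reads were counted (tool, annotation release, strand, reads that align more than once) is not given in the sources used here, so overlapping genes and close copies are uncertain. The counts have no molecular identifiers.

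Symbols, biotypes, lengths and GC content came from GENCODE 29, matched by identifier without version for 38661 rows. Genes and repeats were fitted together with R 4.3.3 and edgeR 4.0.16 (filterByExpr, TMM, robust quasi-likelihood test, 1 mean per group, 15 residual degrees of freedom, biological coefficient of variation 33.3%). Adjusted p-values are Benjamini-Hochberg over 18959 genes, with 1076 repeats adjusted apart. DESeq2 1.42.0 and voom from limma 3.58.1 were alternatives, with the other settings named in the closing section. On data simulated for MG132 against G2, with 20035 rows, 24% of 2-fold and 99% of 4-fold changes were recovered, and 5.38% of calls were false.

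The named genes are the called members, the 3 members of smallest p in each comparison, members chosen by role, up to 3 called genes of each list, and treatment checks. Some members and list genes enter the fits and counts but are not reported here. Members, lists and tests were chosen with earlier results of these data known. No replicates were duplicates (chi-square of counts between 2 libraries of a group, divided by its degrees of freedom, 11.09 to 509.98). Replicate numbers are shared between groups, and some samples with the same number deviated together while most did not (24 pairs, r from -0.61 to 0.615, 6 over 0.1). In no comparison did every pair pass 0.1, so the main test has no block.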

Additional observations from a re-analysis of the deposited data

Results flagged for a closer look

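In 11 of 175 sets of 4 replicate libraries (6.29%), 1 library's CPM stood apart from the other 3, the gap to its nearest neighbour taking a larger part of the whole range than Dixon's 95% critical value allows. Chance alone flags about 1 in 20 sets. Of the 11 values, 4 belong to asynchronous replicate 1 and 4 to G2 replicate 1, the libraries with the lowest share of counts on protein-coding genes, 67.6% and 68.3%. The part of that share was not tested.

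In asynchronous replicate 1, UBE2A at 77.7 CPM, UBE2E1 at 86.5, UBE2F at 27.3 and UBE2N at 227 were each far above the rest of the group. In G2 replicate 1, UBE2B at 49.3 CPM and UBE2D3 at 288 were above the rest, and UBE2G2 at 70.5 and UBE2O at 65.2 below it. UBE2Z was apart at 157 CPM in G2 replicate 2, and UBE2L6 at 13.1 in bortezomib replicate 2. UBE2K was apart at 28.6 CPM in MG132 replicate 4, the library with the steepest slope on GC content. Of these genes, UBE2G2 and UBE2K enter a statement on groups free of overlap.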

How the results depend on the processing

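The alternatives were other scalings (RLE, library totals), no filter or a stricter one (at least 1 CPM in 4 libraries), DESeq2, limma-voom, only the groups compared, genes without repeats, a replicate block, a code letter block, omission of the 4 libraries that sloped with GC content, a GC and length correction, and omission of each library. The number of UBE2 genes called stayed at 0 under all of them in MG132 against G2, bortezomib against G2, MG132 against bortezomib, and the combination against MG132. For G2 against asynchronous cells it became 1 with DESeq2 and 3 with the GC and length correction, which called 3.77% and 6.54% of all genes. For the combination against G2 it became 0 with the replicate block (UBE2C: -1.03, adjusted p = 0.0629) as well as 0 with a code letter block, and ran from 0 to 1 with single libraries omitted. The cause was not tested. UBE2C was called in 13 of 20 alternatives there, with adjusted p from 0.00506 to 0.188. The replicate block changed no other call on a named gene. What a replicate number marks is not stated, and in 5 of 24 cases a sample correlated best with its own number in another group. Over all genes the block lowered the count called from 636 to 466 there, from 397 to 238 in G2 against asynchronous cells, from 395 to 258 in MG132 and from 218 to 120 in bortezomib against G2, from 415 to 288 in the combination against MG132 and from 7 to 3 in MG132 against bortezomib. In the same order, these counts ran from 297 to 679, 143 to 457, 203 to 673 (highest without MG132 replicate 4), 88 to 181, 186 to 547 and 1 to 10 with single libraries omitted, and from 224 to 1005, 8 to 1240, 86 to 647, 30 to 621, 189 to 971 and 0 to 19 over the other alternatives.

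Many small differences changed sign: of 35 members, 2 to 12 per comparison did with the GC and length correction, 2 to 9 without the 4 libraries and 0 to 4 with DESeq2. Among the named results followed through every alternative, the direction turned for UBE2C in MG132 against bortezomib, -0.26 without the 4 libraries and -0.02 to 0.31 with single libraries omitted (lowest without MG132 replicate 2), and for UBE2G2 in the combination against MG132, -0.05 with the GC and length correction. Of the other pathway genes, the correction raised the count called to 6 in G2 against asynchronous cells and 5 in MG132 against G2. It called 6.54% and 3.1% of all genes there. In the combination it raised the count to 9 against MG132 and 6 against G2, with 5.12% and 4.6% of all genes called. Omitting the 4 libraries gave 4 in bortezomib against G2 and 3 in G2 against asynchronous cells. That setting called 2.12% and 4.37% of all genes in these comparisons. UBE2L5 and UBE2Q2L dropped out under the strict filter, which left 33. In the simulation, with 4 libraries a group and the spread set by the trend over expression level, most 2-fold changes were not detected. A missing call thus does not show that a gene is unchanged. Depending on the comparison, 25 to 31 of the 35 members had a 95% interval within a 2-fold change.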
